A study of Homo sapiens with 6 samples.

Results

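The AP-1 and immediate early factors are 10 transcription factor genes, FOS, FOSB, FOSL1, FOSL2, JUN, JUNB, JUND, ATF3, EGR1 and MYC, taken by gene symbol from a table of 17100 transcripts. All 10 were present, and all 10 were among the 13322 genes with enough reads to be tested. They were measured in MDA-MB-231 cells, an established line from a triple-negative breast adenocarcinoma, by sequencing of 3 vehicle libraries and 3 guadecitabine libraries. The guadecitabine (SGI-110) cells received 1 µM of this DNA methyltransferase inhibitor for 96 h and were harvested after a further 24 h without it, and no other allele or agent set the groups apart. The model is a single cell line, and the replicates came from independent experiments according to the methods of the study.

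AP-1 is a dimer of basic leucine zipper (bZIP) proteins. Jun proteins pair with each other or with Fos proteins, whereas Fos proteins need a Jun partner, and the dimers bind the DNA element TGACTCA. FOS, FOSB, JUN, JUNB, ATF3, EGR1 and MYC belong to the immediate early genes, which are transcribed within minutes of a growth factor or stress signal without new protein synthesis. FOSL1 and FOSL2 respond later and are held up by lasting activity of the ERK pathway, and FOSL1 is the Fos protein best known from mesenchymal, invasive breast cancer cells. MYC pairs with MAX at another element, CACGTG, and drives growth genes.

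The libraries held between 8792127 and 22277442 counts, with guadecitabine replicate 2 the smallest. Vehicle replicate 3 stood apart, with 20 transcripts at 0 counts against 1593 to 2517 in the other libraries. In 533 genes with at most 1 count in each of vehicle replicates 1 and 2 and at least 11 counts over the guadecitabine libraries, a subset chosen partly by expression after treatment, the median was 7.10 counts per kb of exon in this library. Over the exons of FOSB such a rate gives 26.1 counts, or 42.7% of the 61 counts of FOSB in that library, and over those of FOS 15.3 of its 154 counts. For the other 8 genes it was at most 5.35%, the value for EGR1. The source of these counts in vehicle replicate 3 was not tested. The line's 5 listed markers, VIM, CD44, KRT8, KRT18 and AXL, were abundant in both groups, at a summed 65726 to 67693 reads per kb in vehicle and 66788 to 79891 after guadecitabine. Within this sum the markers moved in opposite directions. CD44 rose by 1.18 on the log2 scale (adjusted p = 2.66e-05) and VIM by 0.33 (adjusted p = 0.0258), a call lost without any 1 of the vehicle libraries or without guadecitabine replicate 3, while AXL fell by 1.27 (adjusted p = 4.44e-05) and KRT8 by 0.56 (adjusted p = 0.00477). The hormone receptor genes ESR1 and PGR had at most 1 count in every library except vehicle replicate 3, with 67 and 43. The summed level of 8 listed markers of other breast cells was 224 to 325 reads per kb in vehicle and 484 to 548 after guadecitabine, with the leukocyte gene PTPRC at 0 to 3 counts outside vehicle replicate 3. Of the 5 of these markers that were tested, 1 was higher and 2 lower. Collagen gene COL1A1 rose from 191 ± 89.0 to 2014 ± 287 normalized counts (SD, n = 3; log2 fold change 3.38, adjusted p = 3.34e-05). The epithelial gene EPCAM fell by 0.68 on the log2 scale (adjusted p = 0.00446), and E-cadherin, CDH1, with 38, 25 and 87 raw counts in vehicle and 20, 6 and 13 after guadecitabine, had -1.62 (adjusted p = 0.0313), a call lost without vehicle replicate 1 or any 1 of the guadecitabine libraries. The part of these marker changes in the results below was not tested.

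The sequence upstream of the counted transcript start is shown for the 3 genes that rose, JUNB, JUND and ATF3, for FOSB, and for JUN and EGR1, which did not pass the test. The letters are those of the GRCh37 (hg19) reference, from 170 bases before the start to the last base before it, on the strand of the gene. JUNB spans chr19:12902140-12902309 on the plus strand, JUND chr19:18392467-18392636 on the minus strand, and ATF3 chr1:212738506-212738675 on the plus strand. FOSB spans chr19:45971083-45971252 on the plus strand, JUN chr1:59249786-59249955 on the minus strand, and EGR1 chr5:137801011-137801180 on the plus strand. Capitals mark matches, on either strand, to the AP-1 element TGACTCA, the cyclic AMP response element TGACGTCA, its stem TGACGT, the Jun/ATF variant TGACATCA, the TATA box TATAAA and the CArG box bound by serum response factor.
JUNB: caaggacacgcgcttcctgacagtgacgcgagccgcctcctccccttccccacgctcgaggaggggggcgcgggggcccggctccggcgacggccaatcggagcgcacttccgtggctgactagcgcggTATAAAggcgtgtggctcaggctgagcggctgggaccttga
JUND: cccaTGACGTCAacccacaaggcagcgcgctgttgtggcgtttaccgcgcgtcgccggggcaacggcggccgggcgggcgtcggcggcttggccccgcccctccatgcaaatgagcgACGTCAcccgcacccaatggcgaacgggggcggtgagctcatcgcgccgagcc
ATF3: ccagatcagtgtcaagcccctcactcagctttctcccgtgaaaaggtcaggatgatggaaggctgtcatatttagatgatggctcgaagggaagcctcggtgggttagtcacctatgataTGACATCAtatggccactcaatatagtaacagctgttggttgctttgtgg
FOSB: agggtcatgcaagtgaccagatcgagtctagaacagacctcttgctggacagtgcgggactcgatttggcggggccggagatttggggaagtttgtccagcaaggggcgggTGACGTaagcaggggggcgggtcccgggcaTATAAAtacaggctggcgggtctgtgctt
JUN: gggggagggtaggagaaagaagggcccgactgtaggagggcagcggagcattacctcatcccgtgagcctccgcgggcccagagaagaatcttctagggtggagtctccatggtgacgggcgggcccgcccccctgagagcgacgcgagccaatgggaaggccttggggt
EGR1: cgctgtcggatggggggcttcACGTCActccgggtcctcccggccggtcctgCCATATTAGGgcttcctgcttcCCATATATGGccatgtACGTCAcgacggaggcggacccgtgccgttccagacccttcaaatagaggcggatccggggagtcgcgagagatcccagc

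Windows of 250 bases before the start were searched for these motifs and for CACGTG in all 17100 transcripts. EGR1 had 2 CArG boxes, at -118 to -109 and -96 to -87 from the start, a motif found in 1.09% of all windows. The stem TGACGT was found in 6 of the 10 genes (FOS, FOSB, FOSL1, FOSL2, JUND and EGR1) and in 7.94% of all windows. It was added after the sequences were seen, and it overlaps TGACGTCA, which occurred in JUND and in 1.99% of windows. Neither JUNB nor ATF3 held TGACGT. The variant TGACATCA occurred in ATF3 at -50 to -43 and in 1.39% of windows, and TGACTCA in FOSL2 at -50 to -44 and in 2.94%. A TATA box was found in JUNB, FOSB and MYC and in 7.42% of windows, and CACGTG in 0 of the 10 genes and 7.23% of windows. A match is a string of letters and not a measured binding site, and factors may bind outside these windows.

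The same windows held a median of 17 CpG dinucleotides over all transcripts, with quartiles of 7 and 25. JUND had 41, more than or equal to 97.6% of windows, and JUNB had 27, while FOS, FOSL1, FOSL2, FOSB, JUN and EGR1 had 19 to 24. MYC had 14. ATF3 had 3, and only 13.7% of windows had as few or fewer. The 3 genes that rose therefore included the window richest in CpG, that of JUND, and the poorest of the 10, that of ATF3. The call of JUND depended on the libraries used, as given below. The RefSeq table of promoters gives ATF3 another start as well, with 0 CpG in the 250 bases before it. The counts do not tell which start was used, and any further start of ATF3 was not examined. Methylation of these sites was not analysed here.

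Guadecitabine-treated cells had more JUNB, ATF3 and JUND, while the most abundant Fos gene, FOSL1, and MYC had log2 fold changes of -0.12 and -0.10, which did not pass the test. JUNB encodes a Jun protein and ATF3 a stress-responsive partner of Jun proteins, and their levels were 2.40-fold and 2.48-fold those of vehicle. Of the 10 genes, 3 passed an adjusted p of 0.05 as higher and 0 as lower (quasi-likelihood test of edgeR, adjusted by Benjamini-Hochberg over all genes tested), against 19.3% higher and 18.4% lower among all genes tested. None was lower at an unadjusted p of 0.05 in edgeR or among the calls of DESeq2. Every guadecitabine library exceeded every vehicle library in 3 genes (JUNB, ATF3, FOSB) and fell short of each in 1 (FOSL1), and all genes tested did so in 26.7% and 24.9%. The median log2 fold change was -0.11 for the 10 genes and 0.02 for all genes tested. In bulk RNA, a change in the number of expressing cells and a change in RNA per cell cannot be told apart.

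**Figure D1:**
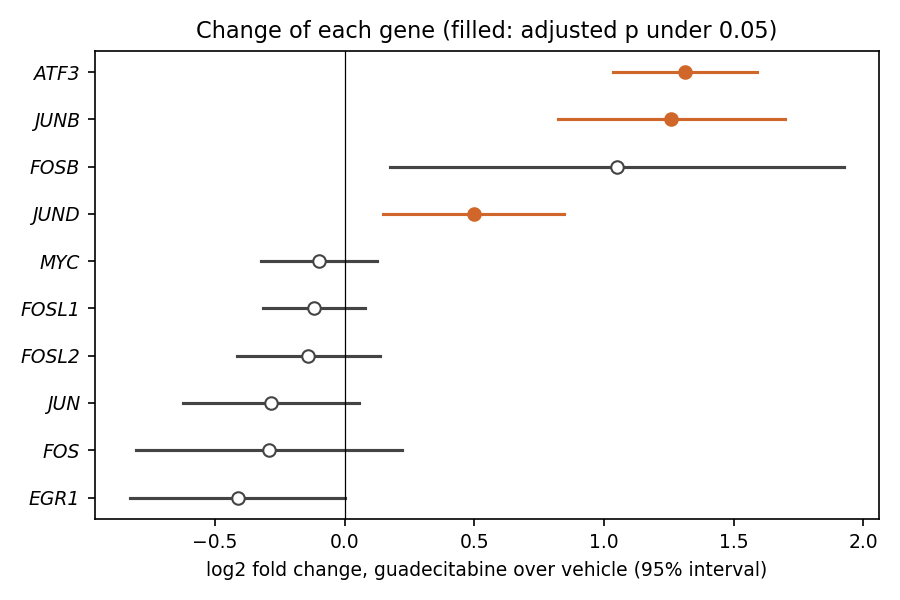
Log2 fold change (horizontal axis) of each of the 10 genes, guadecitabine over vehicle, with its unadjusted 95% interval from the edgeR fit of 3 libraries per group. Filled points passed an adjusted p of 0.05: ATF3 (1.31), JUNB (1.26) and JUND (0.50), while FOSB (1.05) lay as high with a wide interval and the other 6 lay below 0.

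Among the Jun genes, JUNB encodes a Jun protein with a weaker transactivation domain that often limits the activity of JUN. JUNB had 839, 941 and 703 normalized counts in vehicle replicates 1, 2 and 3, and 1524, 2575 and 1868 in guadecitabine replicates 1, 2 and 3. Each guadecitabine library exceeded each vehicle library, and replicate 2 after guadecitabine stood highest. The log2 fold change was 1.26, with a standard error of 0.194 and an adjusted p of 0.00103, or 2.40-fold. With any library left out it stayed between 1.04 and 1.42 and passed the test. JUNB consists of 1 exon, and GENCODE places an exon of HOOK2 across it on the opposite strand. HOOK2 itself had 238 ± 15.1 normalized counts in vehicle and 215 ± 21.0 after guadecitabine (SD, n = 3), a log2 fold change of -0.16 (adjusted p = 0.401). It is not stated whether the counting used the strand.

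JUND, the Jun gene that is expressed steadily rather than on stimulation, had 1056, 1151 and 1477 normalized counts in vehicle and 1476, 1884 and 1859 after guadecitabine. The groups met at the highest vehicle library, replicate 3, and the lowest guadecitabine library, replicate 1, which were equal to within 1 count. JUND thus had a log2 fold change of 0.50, with a standard error of 0.154 and an adjusted p of 0.0315, which is 1.41-fold. This call depended on the libraries used. It was lost without vehicle replicate 1 (log2 fold change 0.40, adjusted p = 0.117), vehicle replicate 2 (0.46, adjusted p = 0.0979), guadecitabine replicate 2 (0.44, adjusted p = 0.0749) and guadecitabine replicate 3 (0.44, adjusted p = 0.125), and without vehicle replicate 3 the value was 0.65 (adjusted p = 0.00417).

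JUN, the prototype of the family and a target of the JNK kinases, did not rise. It had 3296, 3248 and 2565 normalized counts in vehicle and 2067, 2913 and 2526 after guadecitabine. The groups overlapped, since replicate 2 after guadecitabine exceeded vehicle replicate 3. The log2 fold change was -0.28 (95% interval -0.62 to 0.06, adjusted p = 0.170).

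ATF3, a bZIP factor of stress responses that pairs with Jun proteins, had the smallest p of the 10 genes. It had 281, 231 and 222 normalized counts in vehicle and 602, 584 and 637 after guadecitabine. The 3 treated libraries lay close together, with a coefficient of variation of 4.42%, and well above the vehicle libraries. ATF3 was up by 1.31 on the log2 scale (standard error 0.123, adjusted p = 6.08e-05), or 2.48-fold, and it stayed between 1.25 and 1.42 with any library left out. It ranked 409th of the 13322 genes by p.

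FOSB and FOS, the Fos genes with a strong activation domain, were scarce in both groups. FOSB had 27, 22 and 61 raw counts in vehicle and 73, 40 and 61 after guadecitabine, which are 25.7, 23.2 and 46.9 against 59.1, 81.4 and 61.6 normalized counts. The treated libraries were all higher, but vehicle replicate 3, with the count rate given above, lay well over the other vehicle libraries. The log2 fold change was 1.05 (standard error 0.388), and it missed the threshold (adjusted p = 0.0600). It was 1.42 (adjusted p = 0.00211) without vehicle replicate 3. Subtracting the count rate from that library gave 1.35 (adjusted p = 0.00435), an alternative chosen after seeing the data. DESeq2 called FOSB as well, at 1.04 (adjusted p = 0.0372).

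FOS had 96.2, 84.5 and 118 normalized counts in vehicle and 74.5, 97.6 and 75.7 after guadecitabine, from 48 to 154 raw counts. The groups overlapped. The log2 fold change was -0.29 (95% interval -0.80 to 0.22, adjusted p = 0.343).

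FOSL1, which encodes FRA1, was by far the most abundant of the Fos genes. It had 9177, 9189 and 9604 normalized counts in vehicle and 8502, 8666 and 8641 after guadecitabine. All treated libraries were lower, but by little, with a log2 fold change of -0.12 (95% interval -0.31 to 0.08, adjusted p = 0.317). FOSL2, which encodes FRA2, had 2741, 2705 and 2203 normalized counts in vehicle and 2293, 2541 and 2114 after guadecitabine, and the groups overlapped. Its log2 fold change was -0.14 (95% interval -0.42 to 0.14, adjusted p = 0.398).

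EGR1, a zinc finger factor induced through serum response factor, had 439.9, 383 and 319.8 normalized counts in vehicle and 244, 368 and 258 after guadecitabine. Replicate 2 after guadecitabine lay within the vehicle range and the other 2 treated libraries below it. The log2 fold change of -0.41 (95% interval -0.83 to 0.00, adjusted p = 0.107) did not pass. It passed without vehicle replicate 3 (-0.53, adjusted p = 0.0467) and without guadecitabine replicate 2 (-0.60, adjusted p = 0.0197), so that single libraries decide this call.

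MYC had 3679, 3927 and 3415 normalized counts in vehicle and 3261, 3493 and 3547 after guadecitabine. The groups overlapped, and the log2 fold change was -0.10 (95% interval -0.32 to 0.12, adjusted p = 0.465). An exon of the long noncoding RNA CASC11 overlaps MYC on the opposite strand in GENCODE.

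Levels can be compared between genes only per length, as normalized reads per kb of exon. Such levels depend on the counted transcript. For FOSL2, its ends lay 2722 bp in sum from those of the closest GENCODE transcript, against 1 to 194 bp for the other genes. In vehicle, FOSL1 led with 5334 ± 139 reads per kb (SD, n = 3), a level at or above that of 98.1% of the genes tested, followed by MYC with 1553 ± 108 and JUN with 914 ± 123. FOSL2 (639 ± 75.4) and JUND (625 ± 112) overlapped, and JUNB (456 ± 65.8) lay below both. ATF3 (127 ± 16.5) and EGR1 (121 ± 19.2) also overlapped, FOS had 46.2 ± 7.98, and FOSB was lowest with 8.71 ± 3.55.

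After guadecitabine, the middle of this order changed. FOSL1 (4922 ± 50.5 reads per kb) and MYC (1451 ± 64.1) remained at the top, but JUNB with 1095 ± 295 now came next, ahead of JUND (886 ± 116), JUN (753 ± 127) and FOSL2 (580 ± 53.7). Each neighbouring pair from MYC to FOSL2 overlapped between libraries. ATF3, at 316 ± 14.0 reads per kb, was clear of EGR1 at 92.5 ± 21.7, and FOS (38.3 ± 6.05) and FOSB (18.4 ± 3.33) were still the lowest. JUNB moved from the 74.1th to the 87.4th percentile of all genes tested and ATF3 from the 46.6th to the 66.2th.

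**Figure D2:**
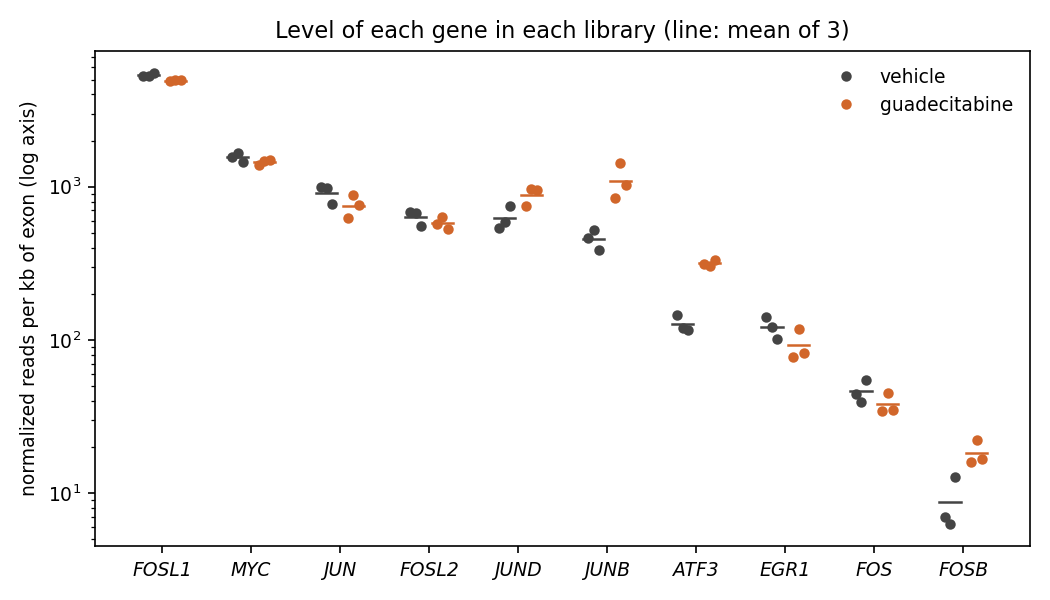
Normalized reads per kb of exon (vertical log axis) of the 10 genes in each of the 3 vehicle and 3 guadecitabine libraries, ordered by vehicle level, with a line at the mean of 3. The points of JUNB, ATF3 and FOSB separate by group, FOSL1 lies between 4864 and 5495 in all 6 libraries, and FOS lies between 34.5 and 54.9.

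The Fos and Jun genes were then expressed as shares of the summed reads per kb of the 7, which gives the make-up of the AP-1 transcripts in each library. The sum itself was 7980, 8061 and 8025 reads per kb in vehicle and 7702, 8916 and 8261 after guadecitabine, and the groups overlapped. FOSL1 made up 65.8%, 65.2% and 68.5% of it in vehicle and 63.1%, 55.6% and 59.8% after guadecitabine. JUNB made up 5.79%, 6.43% and 4.82% in vehicle and 10.9%, 15.9% and 12.5% after guadecitabine. JUND went from 7.80% ± 1.39 to 10.7% ± 0.854 and JUN from 11.4% ± 1.54 to 9.04% ± 0.890 (SD, n = 3), with JUN overlapping between groups. FOS stayed under 1% in every library (0.485% to 0.684% in vehicle, 0.425% to 0.507% after guadecitabine) and FOSB under 0.3% (0.109% ± 0.0442 and 0.220% ± 0.0248).

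As a whole, the 4 Fos genes made up 75.1% ± 1.01 of the pool in vehicle and 67.2% ± 3.89 after guadecitabine (SD, n = 3), a difference of -7.92 percentage points, and the 3 Jun genes made up the rest. The groups did not overlap for the Fos share or for the shares of FOSL1, JUNB, JUND and FOSB. Each of these had p = 0.1 in a two-sided exact permutation test, the smallest p that 3 against 3 libraries allow. Shares of a common pool depend on each other, so these are not separate results. In absolute levels the Jun genes summed to 1992, 2082 and 1911 reads per kb in vehicle and 2213, 3254 and 2736 after guadecitabine. The Fos genes summed to 5988, 5980 and 6114 reads per kb in vehicle and 5489, 5662 and 5525 after guadecitabine. The groups overlapped in neither sum, with the Jun sum higher and the Fos sum lower after guadecitabine (exact permutation test, p = 0.1 for each). The Fos sum was mostly FOSL1, with means of 5334 reads per kb in vehicle and 4922 after guadecitabine, and no Fos gene was called lower. Within the Jun genes, JUN had the largest share in vehicle (45.7% ± 4.83) and JUNB after guadecitabine (39.7% ± 3.36). JUND held 31.5% ± 6.83 of the Jun genes in vehicle and 32.7% ± 2.80 after guadecitabine, with overlapping groups (exact permutation test, p = 0.8). The ratio of JUNB to JUN per kb was 0.466, 0.530 and 0.501 in vehicle and 1.35, 1.62 and 1.35 after guadecitabine, so that JUNB exceeded JUN in each treated library and in no vehicle library (exact permutation test, p = 0.1).

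**Figure D3:**
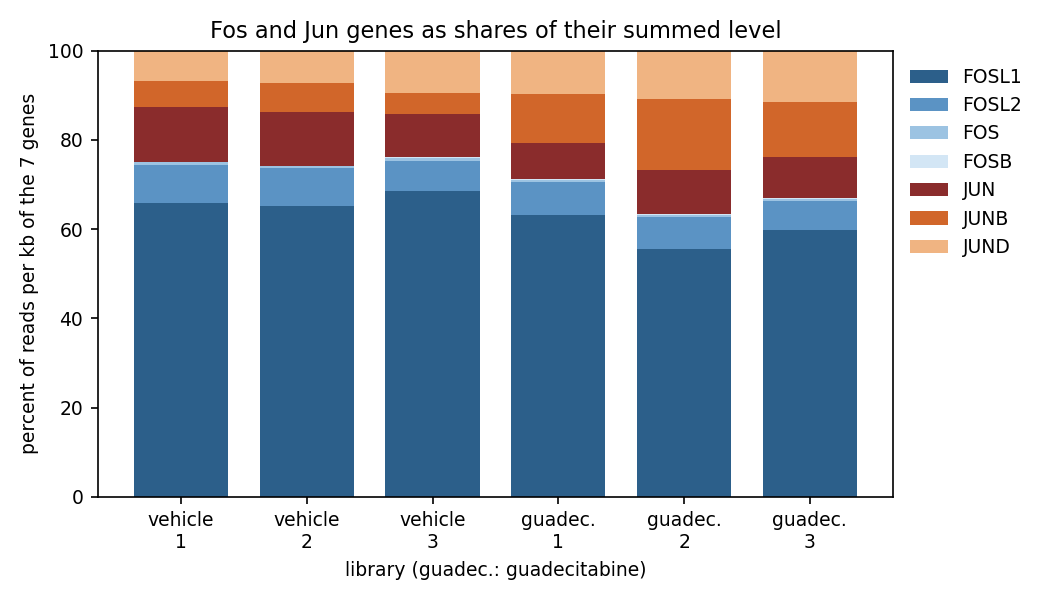
Stacked bars of the share (percent, vertical axis) of each Fos gene (blue) and Jun gene (red and orange) in the summed reads per kb of the 7 genes, 1 bar per library. FOSL1 fills 55.6% to 68.5% of each bar, and the JUNB band is wider in the 3 guadecitabine bars (10.9% to 15.9%) than in the 3 vehicle bars (4.82% to 6.43%).

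The libraries of a group differed in common across these genes. Guadecitabine replicate 2 had the highest normalized count of its group in 8 of the 10 genes and guadecitabine replicate 1 the lowest in 8. Replicate 2 was also the least deeply sequenced library. Whether depth plays a part in this was not tested. Among the vehicle libraries, replicate 3 was lowest in 6 of the 10 genes and highest in 4. The same ranks over all genes tested were not counted. Without guadecitabine replicate 2 the log2 fold change of JUNB was 1.04, against 1.26 with all libraries. That of ATF3 was 1.34, against 1.31. Both passed the test, while JUND did not (0.44, adjusted p = 0.0749 in edgeR) and EGR1 was called lower (-0.60, adjusted p = 0.0197).

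Further immediate early genes were examined as a list of 20, of which 19 were tested. Of these, 4 were higher (21.1%), 2 lower (10.5%) and 13 not called, with a median log2 fold change of 0.12. The shares of all genes tested, 19.3% higher and 18.4% lower, are the background for this list and the next ones. IER3, a survival gene of the immediate early class, went from 10265 ± 471 to 41860 ± 1825 normalized counts (SD, n = 3), up by 2.03 on the log2 scale (adjusted p = 7.68e-07). KLF4 rose by 1.06 on the log2 scale (adjusted p = 0.000163) and ZFP36, whose protein destabilises cytokine mRNA, by 0.50 (adjusted p = 0.00410). IER2, named after its value was seen, had 0.41 (adjusted p = 0.0479). The lower genes were KLF2 with -0.84 (adjusted p = 0.0114) and ZFP36L1 with -0.41 (adjusted p = 0.00831). Without vehicle replicate 3 there were 6 higher and 2 lower. With size factors of DESeq2, the replicate block or no filter, 3 were higher and 2 lower. The same counts came without vehicle replicate 2, guadecitabine replicate 2 or guadecitabine replicate 3. IER2 was not called in any of these settings with 3 higher.

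The bZIP proteins that can pair with Fos or Jun, or share their sites, made up a list of 15 genes, 14 of them tested. Of these, 5 were higher (35.7%) and 1 lower (7.14%). The small Maf genes MAFF and MAFG, whose proteins lack an activation domain, rose by 1.14 (adjusted p = 0.00254) and 0.51 (adjusted p = 0.0163) on the log2 scale, and CREM by 0.70 (adjusted p = 0.00190). ATF7, a relative of ATF2, fell by 0.48 (adjusted p = 0.0127). Also higher, and named only once their values had been seen, were BATF2 (0.95, adjusted p = 0.0420) and MAFK (0.64, adjusted p = 0.0498). Only 3 were higher without vehicle replicate 2, 3 without guadecitabine replicate 2 and 2 without guadecitabine replicate 3, where MAFG was lost. No gene was lower without vehicle replicate 1 or guadecitabine replicate 3, and 2 were without guadecitabine replicate 2.

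Among the kinases upstream, from RAS to ERK and JNK, few calls were made. Of 18 listed and 17 tested, 2 were higher (11.8%), 1 lower (5.88%) and 14 not called, with a median log2 fold change of -0.01. MAPK8, which encodes JNK1, a kinase of JUN, rose by 0.55 on the log2 scale (adjusted p = 0.00887) and NRAS by 0.58 (adjusted p = 0.0217), while ARAF had -0.33 (adjusted p = 0.0319). The call of NRAS was lost without vehicle replicate 1. The call of ARAF was lost without vehicle replicate 1, vehicle replicate 2, guadecitabine replicate 1 or guadecitabine replicate 3, and 2 genes were lower without vehicle replicate 3.

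The genes that switch this signalling off moved in both directions. Of 14 feedback inhibitors of MAP kinases, all tested, 6 were higher (42.9%), 5 lower (35.7%) and 3 not called, with a median log2 fold change of 0.16. The MAP kinase phosphatase genes DUSP1, DUSP5 and DUSP8 rose, by 2.25 (adjusted p = 9.72e-06), 0.89 (adjusted p = 0.000163) and 1.22 (adjusted p = 0.00165) on the log2 scale. DUSP1, itself an immediate early gene, went from 381 ± 31.6 to 1821 ± 346 normalized counts (SD, n = 3). In the opposite direction, SPRY1 fell by 2.46 (adjusted p = 2.74e-06) and SPRY4 by 0.82 (adjusted p = 0.000286), Sprouty genes whose products curb growth factor receptor signalling, and DUSP4 fell by 1.02 (adjusted p = 6.62e-05). DUSP6 and SPRY2, named after their values were seen, were the other lower genes, with -0.69 (adjusted p = 0.000461) and -0.77 (adjusted p = 0.00110). With any library left out 5 or 6 were higher and 5 lower.

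Serum response factor (SRF), which binds the CArG box, was listed with its cofactors and ETS factors, 8 genes in all. All were tested, with 3 higher (37.5%) and 1 lower (12.5%). ETS1 rose by 0.79 (adjusted p = 0.000629), ETS2 by 0.60 (adjusted p = 0.00179) and ELK4 by 0.55 (adjusted p = 0.0143), and MKL2, a cofactor of SRF, had -0.61 (adjusted p = 0.0141). SRF itself, singled out after its value was seen, had -0.27 (adjusted p = 0.167). ELK4 was not called without vehicle replicate 1. No gene was lower without vehicle replicate 1 or guadecitabine replicate 3, and 3 were without vehicle replicate 3.

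Genes known as targets of AP-1 included some of the strongest increases in these lists. Of 18 listed and 17 tested, 10 were higher (58.8%) and 1 lower (5.88%). The median log2 fold change was 1.83, against 0.02 over all genes tested. The list was chosen with earlier results of these data known, so these values describe it and are no test. The median is the value of MMP13, which was not called (adjusted p = 0.210). MMP13 had 1, 0 and 12 raw counts in vehicle and 28, 5 and 6 after guadecitabine. SPP1, among those called higher, had 0, 0 and 6 against 33, 13 and 14. Interstitial collagenase MMP1 went from 92.9 ± 1.44 to 3715 ± 543 normalized counts (SD, n = 3), up by 5.32 on the log2 scale (adjusted p = 4.52e-08). The neutrophil chemokine gene CXCL8 rose by 5.54 (adjusted p = 4.52e-08) and the cytokine gene IL6 by 4.55 (adjusted p = 2.53e-08). Cyclin D1, CCND1, fell by 0.72 on the log2 scale (adjusted p = 0.000486). These genes answer to other factors as well, NF-kB among them, and the list cannot tell these apart. CD44, a line marker above, is also in this list. Without vehicle replicate 3, 13 were higher and 1 lower. Without vehicle replicate 1 or 2, or guadecitabine replicate 2 or 3, 9 were higher and 1 lower. No filter, or at least 10 counts in every library, also gave 9 higher.

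For MYC, the genes of its network made up a list of 11, of which 10 were tested. The list holds the MYC relatives MYCN and MYCL, and MLX and MLXIP, besides partner and antagonist genes. Of those tested, 2 were higher (20.0%) and 1 lower (10.0%). MXD1, an antagonist of MYC at shared sites, rose by 0.76 (adjusted p = 0.00408), MXD3 fell by 1.15 (adjusted p = 0.00289), and MLXIP had 0.31 (adjusted p = 0.0415). The remaining 7 were not called, MAX among them, singled out after its value was seen, with a log2 fold change of 0.13 (adjusted p = 0.644). MLXIP was not called without vehicle replicate 1, 2 or 3, or guadecitabine replicate 2 or 3. Without guadecitabine replicate 1, 2 genes were lower.

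Of 20 growth genes known as MYC targets, 19 were tested, and 6 were higher (31.6%), 3 lower (15.8%) and 10 not called (median log2 fold change 0.30). Ornithine decarboxylase, ODC1, rose by 1.23 (adjusted p = 4.06e-05), and the enzymes SRM of polyamine and PPAT of purine synthesis by 0.51 (adjusted p = 0.00499) and 0.66 (adjusted p = 0.00623). Lactate dehydrogenase A, LDHA, fell by 1.03 (adjusted p = 0.000275), CAD by 0.47 (adjusted p = 0.00505) and CDK4 by 0.47 (adjusted p = 0.0197). CDK4 was not called without vehicle replicate 1, vehicle replicate 2, guadecitabine replicate 1 or guadecitabine replicate 3, and scaling to library totals gave 10 higher.

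Immediate early genes also respond to handling of cells, and heat shock genes were therefore listed. Of 8, all tested, 3 were higher (37.5%) and 0 lower in edgeR (1 lower at an unadjusted p of 0.05, and 1 called by DESeq2), with a median log2 fold change of 0.22. HSP90AA1 rose by 0.80 (adjusted p = 0.0102), HSPH1 by 0.55 (adjusted p = 0.00576) and HSPA8 by 0.48 (adjusted p = 0.0120). HSPA8 was not called without vehicle replicate 1. The part of handling in the rise of JUNB and ATF3 was not tested.

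**Figure D4:**
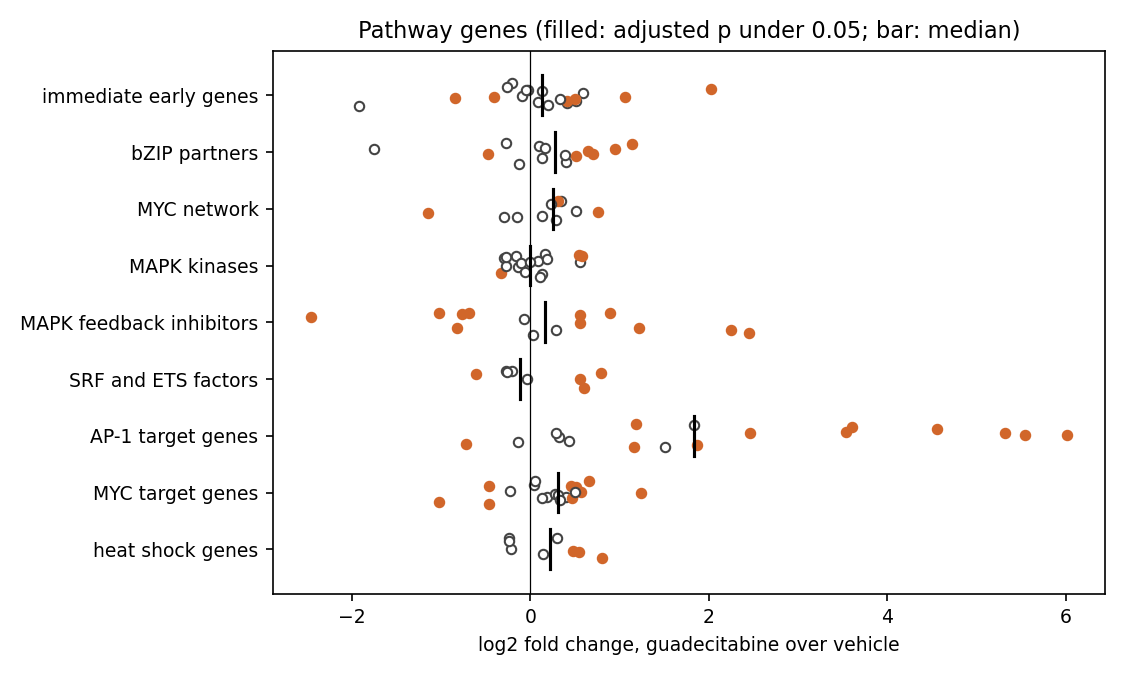
Log2 fold change (horizontal axis, guadecitabine over vehicle) of each tested gene in 9 lists of AP-1 and MYC pathway genes, 3 libraries per group, with a bar at the median. Filled points passed an adjusted p of 0.05 in edgeR. The AP-1 target genes reach 6.01 and have the highest median (1.83, the value of MMP13, which was not called). The feedback inhibitors split into 6 higher and 5 lower genes. The lists were chosen with earlier results of these data known.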

How the data were processed

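RNA from 3 vehicle and 3 guadecitabine cultures was sequenced. The authors aligned reads to hg19 with STAR (2.3.1z in the submitters' processing notes) and counted reads in exons per RefSeq transcript with iRNA-seq, and the raw counts were deposited. The deposited table also holds regularized log2 values and the authors' fold changes and p-values from DESeq2, none of which were used. Strand use in counting and whether transcripts below 11 summed counts were removed are not given in the sources used here, but the smallest summed count was 11. Groups came from the sample labels.

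Counts were filtered with filterByExpr (minimum count 10), scaled by TMM and tested with edgeR 4.0.16 (quasi-likelihood test, R 4.3.3), with Benjamini-Hochberg adjustment over 13322 genes and a threshold of 0.05. Normalized counts are counts scaled to the mean library total after TMM, and reads per kb are these divided by the counted exon length. Percentiles are ranks of the group mean per kb among the genes tested. Shares were compared by two-sided exact permutation tests. DESeq2 1.42.0, other scalings and filters, a replicate block and each library left out were alternatives. The fit was tested on simulated data. The p-values of edgeR set the difference between groups against the spread between these libraries, which all came from a single cell line. All 10 genes are described, and from each other list the 3 genes with the smallest adjusted p in each direction are named. The members and lists were chosen with earlier results of these data known. Upstream windows were read from GRCh37 at the deposited starts. For each of the 8 members with an entry, a stretch of the window occurred in the RefSeq promoter table (GRCh38). That check allowed another start and did not compare whole windows. Same-numbered vehicle and guadecitabine libraries were not paired by the labels. The marker list used here leaves out 1 gene, which is not reported here.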

Additional observations from a re-analysis of the deposited data

How the results depend on the processing

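No log2 fold change of the 10 genes changed sign under any alternative, and JUNB and ATF3 passed the test in each. FOSB passed with DESeq2 (1.04), with no filter (1.08) and with at least 10 counts in every library (1.03). It also passed with the count rate subtracted in vehicle replicate 3 (1.35, chosen after seeing the data). Its share of the AP-1 pool differed by 0.200 percentage points without division by length, against 0.112. Leaving out 1 library at a time gave 0.87 to 1.42 for FOSB, 0.40 to 0.65 for JUND and -0.60 to -0.29 for EGR1, with 0 to 1 of the 10 genes lower. It gave 1706 to 3002 genes higher and 1629 to 2575 lower over all genes, both lowest without guadecitabine replicate 3. In the lists it gave 2 to 5 bZIP partners higher and 0 to 2 lower, 1 to 2 MYC network genes higher and 1 to 2 lower, 1 to 3 kinases higher and 0 to 2 lower, and 0 to 3 SRF and ETS genes lower. With size factors of DESeq2, with the replicate block and with no filter, 1 MYC network gene was higher, and with the block or no filter 0 kinases were lower. Library totals gave 10 MYC targets higher, and DESeq2 and the count rate subtraction each gave 1 heat shock gene lower. With no filter the median log2 fold change over all genes was -0.11, against 0.02. The cause of these differences was not tested. With the replicate block, 2424 genes were higher and 2230 lower, and 3 and 0 of the 10 genes. Deviations of same-numbered libraries correlated at -0.04, 0.04 and -0.03 across genes, so the numbers were not taken as pairs. FOS and FOSB rest on 22 to 154 counts per library, which limits their precision.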
